A study of Homo sapiens with 9 samples.

Results

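Skeletal muscle genes were followed in 9 mouse thyroid tumors. The set held 46 genes, all found by symbol among the 17369 genes of the expression table. Of these, 18 were classed here as fast-fiber genes and 11 as slow-fiber genes, several of the latter being shared with the heart. A further 2 are developmental myosin heavy chains, 13 were treated here as shared between fiber types and 2 are transcription factors of muscle differentiation.

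Anaplastic thyroid cancer is an undifferentiated and fast-growing cancer of the thyroid, modeled here by injecting mouse tumor cells into the gland itself. The cells were TBP3743, a single line whose B6129SF1 source animals carried Braf V600E and a Trp53 deletion, each restricted to the thyroid, so that all 9 tumors share both alleles. Hosts were 6-week-old female mice, each given 100000 cells in the left thyroid gland, and whole tumors were taken 14 days later for RNA sequencing. The SFOG group was original TBP3743 in B6129SF1 mice, an F1 hybrid strain with C57BL/6 as a parent. The SFSC group was the same host strain with adapted cells, which had gone through 3 rounds of growth under the skin of C57BL/6 mice. The B6SC group was adapted cells in inbred C57BL/6 mice. Each group held 3 tumors, labelled as biological replicates, and no tumor-free thyroid or muscle was analysed here. The labels give the cells as cancer epithelial cells and the organism as human, whereas the table carries mouse symbols and was aligned to mm10.

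Skeletal muscle contracts through sarcomeres, in which myosin thick filaments pull on actin thin filaments once calcium binds the troponin complex. Fast and slow fibers build the same machine from different paralogs of myosin, troponin and calcium-handling proteins, and fetal or regenerating fibers use further myosin heavy chains. Muscle is not part of the thyroid gland, and the strap muscles of the neck lie over it.

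Values are FPKM, fragments scaled by transcript length and by library, so that levels of different genes can be compared per length. They summed to between 457983 and 540514 per tumor. Sequencing depth is unknown, because only scaled values were analysed. Of the markers of the labelled cancer cells, Vim (vimentin) lay at 2611 to 6058 FPKM, Krt8 and Krt18 (simple-epithelium keratins) at 110 to 615 FPKM and Cdh2 (N-cadherin) at 39.9 to 71.3 FPKM. Krt7, Krt19, Epcam and Cdh1, defining epithelial markers, were at 4.48 FPKM or less in all tumors. The 8 markers together were lowest in SFSC replicate 3, with a sum of 2916 FPKM, and ran up to 6687 FPKM in SFOG replicate 2. Most of each sum was Vim. By group, sums were 5631 to 6687 FPKM in SFOG, 2916 to 3961 FPKM in SFSC and 3476 to 4198 FPKM in B6SC. Gene by gene, the median log2 fold change of the 8 markers against SFOG was −0.39 in SFSC, with 0 above 0. In B6SC it was −0.07, with 4 above 0, so the lower sums there did not describe the markers as a set. Vim had log2 fold changes against SFOG of −0.91 in SFSC (SE 0.18, limma adjusted p = 0.0200) and −0.66 in B6SC (SE 0.18, limma adjusted p = 0.0583). Krt8 was lower in SFSC and in B6SC than in SFOG, with log2 fold changes of −1.32 (SE 0.25, limma adjusted p = 0.0189) and −1.12 (SE 0.25, limma adjusted p = 0.0346). It was the only 1 of the 8 markers called, against 3.22% and 3.09% of all genes tested. Neither call held without SFOG replicate 3 (limma adjusted p = 0.0727 and 0.113).

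A pair of tumors held nearly all of the muscle signal. Summed over the 46 genes, the share of all FPKM was 8.57% in replicate 3 of SFSC and 1.79% in replicate 1 of B6SC. In the other 7 tumors it was between 0.0716% and 0.264%. SFSC replicate 3 was the highest tumor for 44 of the 46 genes, the exceptions being Myl3 and Tpm3. It and B6SC replicate 1 were the top tumors for 43 of the 46, with Myh8, Myl3 and Tpm3 as exceptions. In such bulk samples, more muscle cells and more RNA per muscle cell cannot be told apart. Fold changes that rest on these tumors are given with and without them.

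The remaining tumors also differed from one another in muscle signal, and every group held a low one. By median rank over the 46 genes, the order was SFSC replicate 3, B6SC replicate 1, SFSC replicate 1, B6SC replicate 3, SFOG replicate 1, SFOG replicate 3, SFOG replicate 2, SFSC replicate 2 and B6SC replicate 2. The number of muscle genes at 1 FPKM or more followed the same order, from 45 and 43 in the first pair through 36, 34, 28, 25, 13 and 10 to 4 in B6SC replicate 2, where 11 genes were listed at 0. Replicate 1 of SFSC lay above replicate 2 for 41 of the 46 genes. In B6SC, replicate 3 lay above replicate 2 for 45 genes, and in SFOG, replicate 1 lay above replicate 2 for 42.

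**Figure D1:**
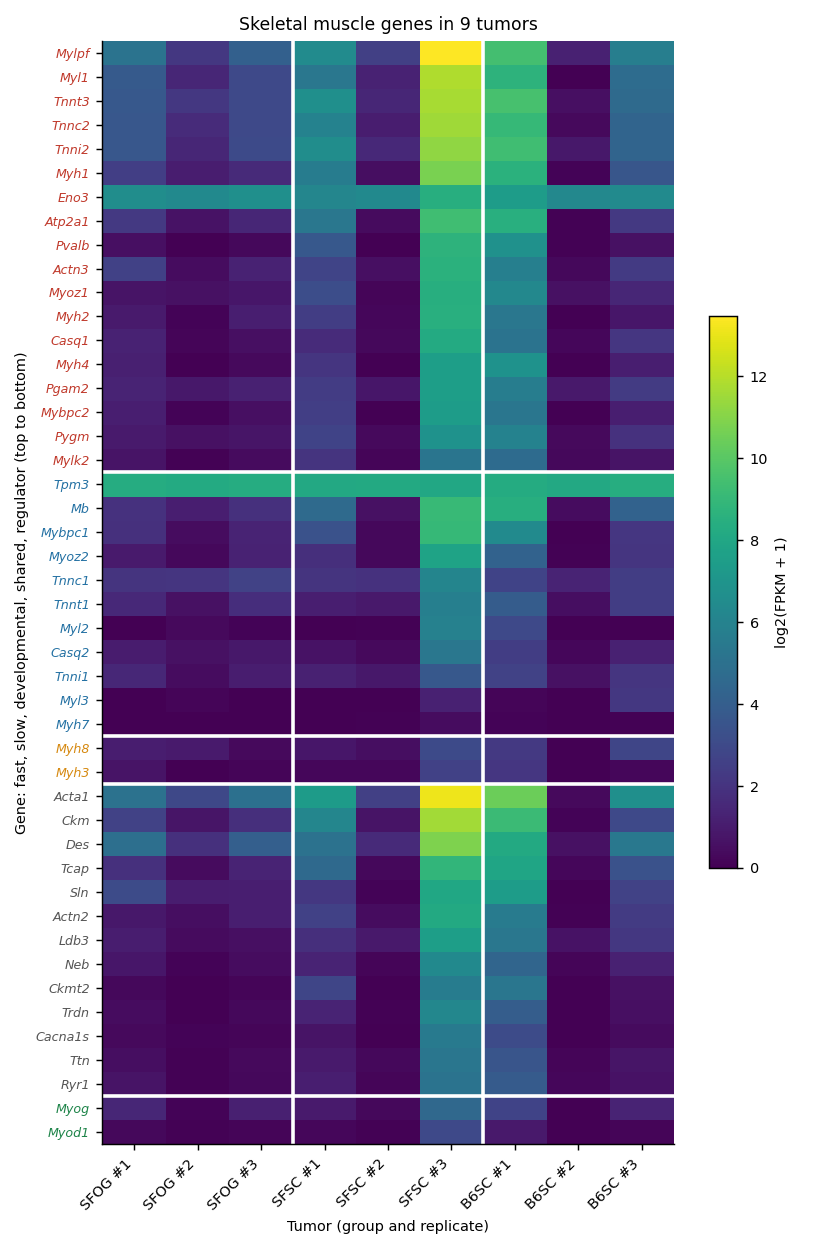
Level of each of the 46 genes (rows, by class) in each of the 9 tumors (columns) as log2(FPKM + 1), with white lines between classes and between groups. The columns of SFSC replicate 3 and B6SC replicate 1 stand out in nearly every row, while Tpm3 and Eno3 are bright across all tumors.

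Tpm3 and Eno3 weighed on the summed share because they were high in every tumor. In each list of 9 values, replicates 1 to 3 follow in order within a group. Tpm3, a tropomyosin of slow fibers that is also made in many non-muscle cells, stood at 324, 296 and 319.6 FPKM in SFOG, at 278, 294 and 264 FPKM in SFSC and at 305, 274 and 330.4 FPKM in B6SC, and was thus lowest in SFSC replicate 3. Eno3, the muscle form of the glycolytic enzyme enolase, had the same top pair as most of the set but a high level elsewhere. It lay between 71.7 and 103 FPKM in 7 tumors, at 174 FPKM in B6SC replicate 1 and at 341 FPKM in SFSC replicate 3. Without these genes, a choice made after their values were seen, the muscle share was 8.46% and 1.69% in the top pair and between 0.00213% and 0.190% elsewhere. In B6SC replicate 2 the summed level of the remaining 44 genes was then 10.7 FPKM, against 45707 FPKM in SFSC replicate 3.

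Genes treated as shared between fiber types set the scale of the pattern. Acta1, the actin of the skeletal thin filament, stood at 32.9, 6.54 and 29.8 FPKM in SFOG, at 165, 4.94 and 8921 FPKM in SFSC and at 1402, 0.286 and 105 FPKM in B6SC. Ckm, the muscle creatine kinase that buffers ATP, stood at 5.40, 0.671 and 2.54 FPKM in SFOG, at 72.5, 0.623 and 3149 FPKM in SFSC and at 568, 0.109 and 6.89 FPKM in B6SC. Des, the desmin of the intermediate filaments around the Z disc, stood at 29.1, 2.59 and 15.9 FPKM in SFOG, at 33.0, 2.02 and 1826 FPKM in SFSC and at 284, 0.542 and 41.0 FPKM in B6SC. For all 3 genes the adapted groups spanned the SFOG range on both sides, so that no pair of groups was separated.

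Tcap, Sln and Actn2 had the same pair of high tumors. Tcap, which caps titin at the Z disc, stood at 2.59, 0.291 and 1.53 FPKM in SFOG, at 23.7, 0.211 and 460.1 FPKM in SFSC and at 242, 0.177 and 9.51 FPKM in B6SC. Sln, sarcolipin, a small inhibitor of the calcium pump, stood at 7.44, 1.09 and 1.16 FPKM in SFOG, at 3.54, 0.0994 and 259 FPKM in SFSC and at 174, 0 and 5.39 FPKM in B6SC. Actn2, an α-actinin that ties actin to the Z disc, stood at 0.836, 0.417 and 1.21 FPKM in SFOG, at 5.16, 0.373 and 286 FPKM in SFSC and at 48.0, 0.0474 and 4.06 FPKM in B6SC. For these genes, too, SFSC replicate 2 and B6SC replicate 2 lay below all SFOG tumors. The other shared genes were Ckmt2 (mitochondrial creatine kinase), Ryr1 (calcium release channel), Cacna1s (its voltage sensor), Ttn and Neb (the giant filament rulers titin and nebulin), Ldb3 (a Z disc protein) and Trdn (triadin, of the calcium release complex). Their highest level lay between 33.7 FPKM for Ryr1 and 187 FPKM for Ldb3, always in SFSC replicate 3.

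The fast-fiber genes of highest level were parts of the contractile filaments. Mylpf, the fast regulatory light chain of myosin, stood at 34.1, 3.53 and 16.3 FPKM in SFOG, at 90.9, 4.96 and 11294 FPKM in SFSC and at 695, 1.36 and 52.7 FPKM in B6SC. Myl1, the fast alkali light chain, stood at 13.0, 1.72 and 6.83 FPKM in SFOG, at 39.6, 1.43 and 3780 FPKM in SFSC and at 411, 0 and 25.7 FPKM in B6SC. Myh1, the heavy chain of IIx fibers, stood at 4.71, 1.15 and 2.03 FPKM in SFOG, at 50.0, 0.395 and 1745 FPKM in SFSC and at 379.8, 0.0831 and 11.1 FPKM in B6SC. Mylpf in SFSC replicate 3 was the highest value of any muscle gene in any tumor.

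The 3 fast troponin subunits, which switch the thin filament on when calcium rises, ran in parallel. Tnnt3 stood at 12.1, 3.60 and 6.87 FPKM in SFOG, at 105, 1.75 and 3333 FPKM in SFSC and at 739, 0.444 and 24.4 FPKM in B6SC. Tnnc2, the calcium-binding subunit, stood at 11.6, 2.11 and 6.97 FPKM in SFOG, at 61.0, 1.09 and 3029 FPKM in SFSC and at 527, 0.270 and 19.3 FPKM in B6SC. Tnni2, the inhibitory subunit, stood at 11.8, 1.76 and 7.28 FPKM in SFOG, at 96.0, 1.90 and 2416 FPKM in SFSC and at 645, 0.855 and 19.1 FPKM in B6SC. SFSC replicate 1, next in order after the top pair, lay above all SFOG tumors for all 3 subunits. The fast genes outside the filaments included Atp2a1, the fast calcium pump, Pvalb, a calcium buffer, Casq1, the calcium store of the reticulum, and the enzymes of glycogen and sugar breakdown Pygm and Pgam2. All had their top values in the same pair of tumors.

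Slow-fiber genes had the same top pair of tumors, mostly at lower levels than their fast counterparts. Mb, the oxygen store myoglobin, stood at 2.76, 1.15 and 2.60 FPKM in SFOG, at 24.1, 0.494 and 534 FPKM in SFSC and at 344, 0.345 and 18.0 FPKM in B6SC. Mybpc1, the slow myosin-binding protein C, stood at 2.63, 0.380 and 1.58 FPKM in SFOG, at 9.68, 0.237 and 518 FPKM in SFSC and at 84.6, 0.0118 and 3.39 FPKM in B6SC. Myoz2, a slow Z disc protein that binds calcineurin, stood at 0.960, 0.227 and 1.41 FPKM in SFOG, at 2.46, 0.232 and 224 FPKM in SFSC and at 17.8, 0.0463 and 3.25 FPKM in B6SC. In these 3 genes the low tumor of each group was again replicate 2.

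The slow troponins varied over a smaller range. Tnnt1 stood at 1.92, 0.495 and 2.33 FPKM in SFOG, at 1.19, 0.904 and 54.7 FPKM in SFSC and at 13.98, 0.422 and 4.43 FPKM in B6SC. Tnnc1, shared with the heart, stood at 3.07, 3.18 and 5.21 FPKM in SFOG, at 3.03, 2.77 and 68.1 FPKM in SFSC and at 5.42, 1.499 and 4.38 FPKM in B6SC. Tnnc1 was therefore high in 1 tumor only, since B6SC replicate 1 was 1.04 times the highest of the other 7. The slow myosins stayed low. Myh7, the slow heavy chain, did not exceed 0.351 FPKM in any tumor. Myl2, the slow regulatory light chain, reached 58.9 FPKM in SFSC replicate 3 and 6.78 FPKM in B6SC replicate 1, and lay at 0.260 FPKM or less elsewhere. Myl3, the slow alkali light chain, was highest in B6SC replicate 3 at 3.54 FPKM, followed by SFSC replicate 3 at 1.34 FPKM.

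Of the developmental heavy chains, Myh8 had a further high tumor and Myh3 had the usual pair. Myh8, the perinatal form, stood at 1.13, 0.992 and 0.252 FPKM in SFOG, at 0.782, 0.413 and 7.21 FPKM in SFSC and at 3.68, 0 and 6.11 FPKM in B6SC. Its second-highest tumor was B6SC replicate 3, which by median rank stood below SFSC replicate 1. Myh3, the embryonic form, stood at 0.609, 0.00603 and 0.147 FPKM in SFOG, at 0.170, 0.163 and 4.98 FPKM in SFSC and at 3.38, 0 and 0.194 FPKM in B6SC. The regulators were at low levels throughout. Myog, which drives terminal differentiation, stood at 1.75, 0.111 and 1.27 FPKM in SFOG, at 0.929, 0.222 and 22.5 FPKM in SFSC and at 5.63, 0 and 1.58 FPKM in B6SC. Myod1, which commits cells to the muscle lineage, stood at 0.233, 0.0429 and 0.123 FPKM in SFOG, at 0.168, 0.0572 and 6.75 FPKM in SFSC and at 0.897, 0 and 0.150 FPKM in B6SC.

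**Figure D2:**
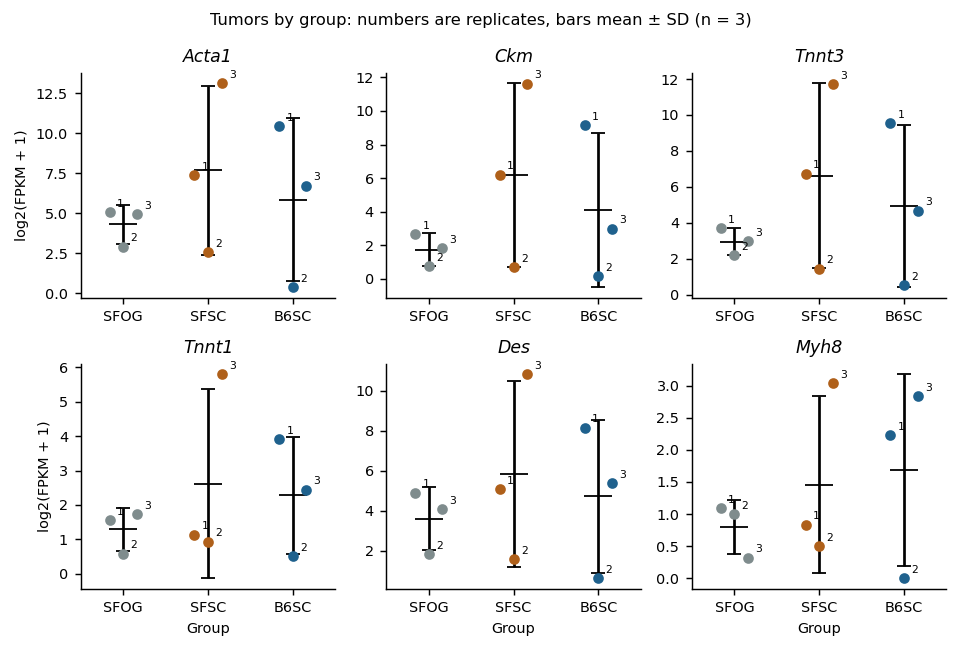
log2(FPKM + 1) of Acta1, Ckm, Tnnt3, Tnnt1, Des and Myh8 in each tumor, by group, with points numbered by replicate and bars giving the group mean ± SD (n = 3). In all 6 genes the tumors of each adapted group lie on both sides of the SFOG mean, and the SD of the adapted groups is larger than that of SFOG.

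The design compares adapted with original cells in the same host strain, adapted cells in C57BL/6 mice with original cells, and adapted cells in both hosts. In none of these comparisons did a muscle gene pass the test. Values were compared as log2(FPKM + 1) with limma over 10263 genes, those that reached 1 FPKM in 3 or more tumors, and genes were called at an adjusted p under 0.05 with an absolute log2 fold change above 1. This filter kept 39 of the 46 genes and left out Myh7, Myl2, Myl3, Myh3, Cacna1s, Ttn and Myod1. Mylk2, Ckmt2, Pvalb, Ryr1 and Trdn passed it only through SFSC replicates 1 and 3 and B6SC replicate 1. Neb, Myoz1 and Pygm passed it only through these tumors and B6SC replicate 3. For none of these genes did an SFOG tumor reach 1 FPKM, so the filter itself favored a rise against SFOG. By limma, 0 of the 39 were called in SFSC against SFOG, where 3.22% of all genes tested were called. The count was 0 of 39 in B6SC against SFOG, where 3.09% of genes were called, and 0 of 39 in B6SC against SFSC, where 0.0292% were called. At an unadjusted limma p under 0.05 the count was also 0 in each, against 26.5%, 24.4% and 6.27% of all genes tested. The lowest adjusted p of a muscle gene by limma was 0.308, 0.503 and 0.883 in the 3 comparisons. The comparisons share tumors, so they are not independent of one another.

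Fold changes were large and their errors larger still. In SFSC against SFOG, the median log2 fold change of the 39 genes was 2.69, against −0.03 over all genes tested, and 38 of the 39 were above 0. The 39 include genes that passed the filter only through adapted tumors, which favors values above 0 against SFOG. With the 7 filtered genes included, the median of the 46 was 2.48, and 45 were above 0. In B6SC against SFOG the median of the 39 was 1.63, against −0.03 over all genes, with 37 above 0. In B6SC against SFSC it was −1.05, against 0.01 over all genes, with 2 above 0. These medians rested on single tumors. Without SFSC replicate 3, the first median fell to 0.61 with 30 of 39 above 0, and the third became 1.00. Without B6SC replicate 1, the second was 0.01 with 20 of 39 above 0, and the third was −2.53. Without SFSC replicate 2 the first was 4.25, and 22 of the 39 then had an unadjusted limma p under 0.05, against 24.8% of all genes tested, still with 0 called. Without B6SC replicate 2 the second was 3.05 and the third was 0.23.

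Acta1, with group means of 23.1 ± 14.4, 3030 ± 5102 and 502 ± 781 FPKM (SD, n = 3), had a log2 fold change of 3.38 (SE 2.91) in SFSC and of 1.53 (SE 2.91) in B6SC against SFOG. Among fast genes, Tnnt3 had log2 fold changes of 3.67 (SE 2.68) and 1.95 (SE 2.68), and Myh4, the heavy chain of IIb fibers, of 2.70 (SE 2.10) and 2.15 (SE 2.10). Tnnt1, its slow counterpart, had 1.33 (SE 1.29) and 1.00 (SE 1.29). Myog had 1.00 (SE 1.08) and 0.43 (SE 1.08). Without SFSC replicate 3, the values for SFSC were 0.66 (Acta1), 1.13 (Tnnt3), 0.53 (Myh4), −0.26 (Tnnt1) and −0.31 (Myog). Without B6SC replicate 1, those for B6SC were −0.77 (Acta1), −0.36 (Tnnt3), 0.067 (Myh4), 0.19 (Tnnt1) and −0.25 (Myog). Tpm3 had the smallest error, with −0.17 (SE 0.10) and −0.05 (SE 0.10). Each of these changes was smaller than 2 times its SE, and the adjusted p-values by limma lay between 0.308 and 0.969 for all 39 genes in these comparisons.

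**Figure D3:**
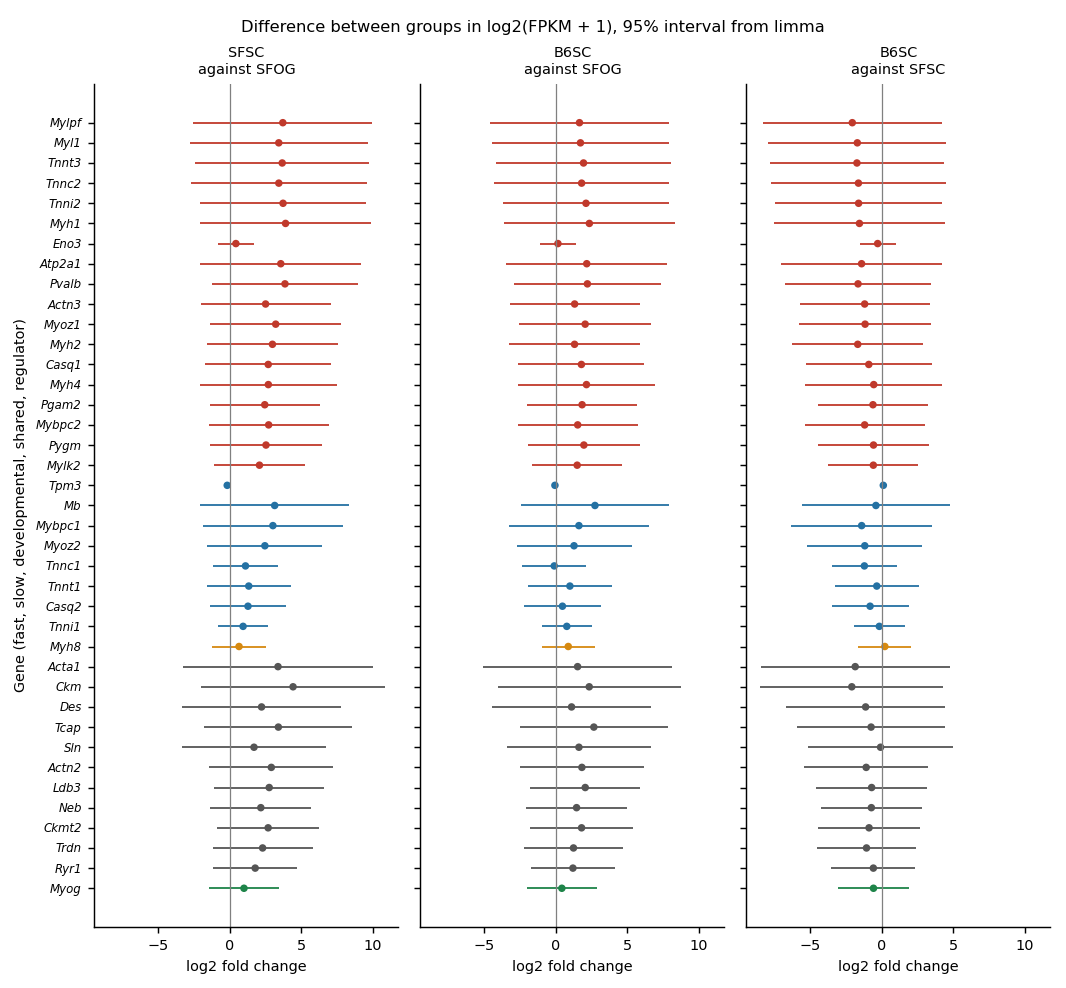
Difference in log2(FPKM + 1) between groups for the 39 muscle genes tested (points, colored by class) with the 95% interval from limma (lines), in 3 panels for the 3 comparisons. All intervals cover 0, and those of Tpm3 and Eno3 are the shortest.

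A test of single values gave no smaller p. Exact two-sided permutation tests of Acta1, Myh4, Myh7, Myh3, Tnnt3, Tnnt1, Myog and Des in the 3 comparisons, 24 in all, had a lowest p of 0.2 and a lowest Benjamini-Hochberg adjusted p of 0.8. With 3 tumors against 3, an exact permutation p cannot go below 0.1. The groups did not overlap for 1 of the 46 genes in SFSC against SFOG, against 29.6% of all genes tested. This gene was Tpm3, whose SFSC tumors at 264 to 294 FPKM lay below the SFOG tumors at 296 to 324 FPKM. There were 0 non-overlapping genes of the 46 in B6SC against SFOG, against 32.8% of genes tested, and 0 in B6SC against SFSC, against 11.7%.

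Fast forms made up almost all of the myosin in the tumors of high muscle signal. The FPKM of the 6 myosin heavy chain genes summed to 2304 in SFSC replicate 3, 541 in B6SC replicate 1 and 58.6 in SFSC replicate 1. Myh1, Myh2 and Myh4, the fast forms, took 99.5%, 98.7% and 98.4% of these sums. Myh1 was the main form in all 3, with 75.7%, 70.2% and 85.2%. The second form differed, being Myh2 of IIa fibers in SFSC replicate 3 with 15.5%, against 8.18% for Myh4. In B6SC replicate 1 it was Myh4 with 21.1%, against 7.32% for Myh2. These genes are close paralogs, and how shared fragments were divided between them is not given in the sources used here, so the split between fast forms is uncertain.

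Developmental forms took a larger share where muscle signal was lower. In B6SC replicate 3, where heavy chains summed to 19.4 FPKM, the fast share was 67.2% and Myh8 alone took 31.5%. In SFOG the sums were 8.71, 2.27 and 3.87 FPKM, the fast share was 80.0%, 56.0% and 89.5%, and the developmental share was 19.9%, 44.0% and 10.3%. In SFSC replicate 2 the developmental share was 47.1% of 1.22 FPKM. Developmental chains thus held at least 10.3% in 5 tumors and at most 1.62% in the 3 of highest sum. The slow form Myh7 held at most 3.08% in any tumor. B6SC replicate 2 had a sum of only 0.143 FPKM, all of it in fast forms, and the shares of tumors at such levels rest on very small values.

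**Figure D4:**
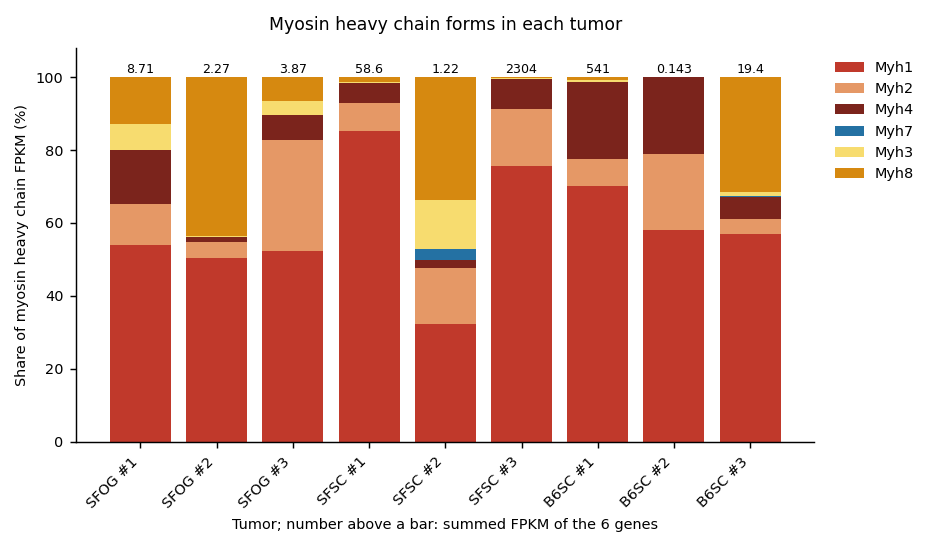
Share of the summed FPKM of 6 myosin heavy chain genes held by each gene, as stacked bars for each tumor, with the sum in FPKM above the bar. Red tones are fast forms, blue is the slow form and yellow tones are developmental forms, which are visible mainly in SFOG, SFSC replicate 2 and B6SC replicate 3.

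Other families of paralogs, most of them contractile, had the same preference for fast forms in the tumors of highest signal. Among 8 pairs of fast and slow paralogs, the fast gene was above the slow gene in 7 pairs in SFSC replicates 1 and 3 and B6SC replicate 1. The exception in all 3 was myosin-binding protein C, where Mybpc2 took 32.5%, 25.0% and 30.7% of the pair. Mybpc1 was classed here as slow, and whether it is limited to slow fibers was not tested. The fast gene was above the slow gene in 6 pairs in SFOG replicate 1 and B6SC replicate 3. It was so in 5 pairs in SFOG replicates 2 and 3 and B6SC replicate 2, and in 4 pairs in SFSC replicate 2. Counts of the low tumors rest on small values. In B6SC replicate 2, Myl1 and Myl3 were both listed at 0. Tnnt3 stood there at 0.444 against 0.422 FPKM for Tnnt1, and Mybpc2 at 0.0129 against 0.0118 FPKM for Mybpc1.

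Both forms of each troponin subunit were detected in every tumor. Tnnt3 took 98.4%, 98.1% and 98.9% of troponin T in SFSC replicate 3, B6SC replicate 1 and SFSC replicate 1. It took 86.3%, 87.9% and 74.7% in SFOG, 84.6% in B6SC replicate 3, 65.9% in SFSC replicate 2 and 51.3% in B6SC replicate 2. Troponin C showed the widest range, with Tnnc2 at 95.3% to 99.0% in the 3 tumors of highest signal, 81.5% in B6SC replicate 3, 40.0% to 79.1% in SFOG and 15.3% in B6SC replicate 2. Of the light chains, Myl1 took at least 87.9% and Mylpf at least 93.1% of their pairs in each tumor where the pair was above 0.

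The top tumors differed in composition as well as in amount. SFSC replicate 3 exceeded B6SC replicate 1 for 45 of the 46 genes, with a median ratio of 4.47, against 0.995 over all genes tested. These are single tumors with no replicate check, so the ratios are descriptions. By class, the median ratio was 4.47 for fast genes, 6.13 for slow genes, 4.71 for shared genes and 1.72 for the 2 developmental chains. The slow genes include Myl3, at 1.34 and 0.140 FPKM, and Myh7, at 0.351 and 0.0987 FPKM, whose ratios rest on small values. They also include Tpm3, with a ratio of 0.863, which is also made in many non-muscle cells. Ratios within a class were far apart. Mylpf had the highest at 16.2 and made up 24.7% of the FPKM of the muscle genes without Tpm3 and Eno3 in SFSC replicate 3, against 9.0% in B6SC replicate 1. Acta1 made up 19.5% and 18.1% in the same tumors. Tnnc1 and Myoz2, of slow fibers, had ratios of 12.6 each, and Myh2 of 9.04. The lowest ratios above 1 included those of Ckmt2 (1.31), Sln (1.49), Mb (1.55), Myh4 (1.65) and Atp2a1 (1.77).

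The next tumors in order, SFSC replicate 1 and B6SC replicate 3, were closer in amount and further apart in kind. They were chosen as a pair after their values were seen. Acta1 in SFSC replicate 1 was 1.57 times its level in B6SC replicate 3. Fast genes were higher in SFSC replicate 1 for 16 of 18, with a median ratio of 3.56. Of the slow genes above 0 in both, 7 of 9 were higher in B6SC replicate 3, with a median ratio of 0.692. The 7 include Myh7, which was near 0, and Tpm3, which is also made in many non-muscle cells. Both developmental chains were higher there too, Myh3 only at 0.194 against 0.170 FPKM. The largest ratios were those of Pvalb (23.6), Ckmt2 (11.5), Atp2a1 (10.6) and Ckm (10.5). At the other end were Myh8 (0.128), Myh7 (0.140) and Tnnt1 (0.270). The Myh7 ratio rests on only 0.00674 and 0.0480 FPKM. Tnni1, the slow inhibitory troponin, stood at 1.33 FPKM in SFSC replicate 1 and 3.18 FPKM in B6SC replicate 3.

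**Figure D5:**
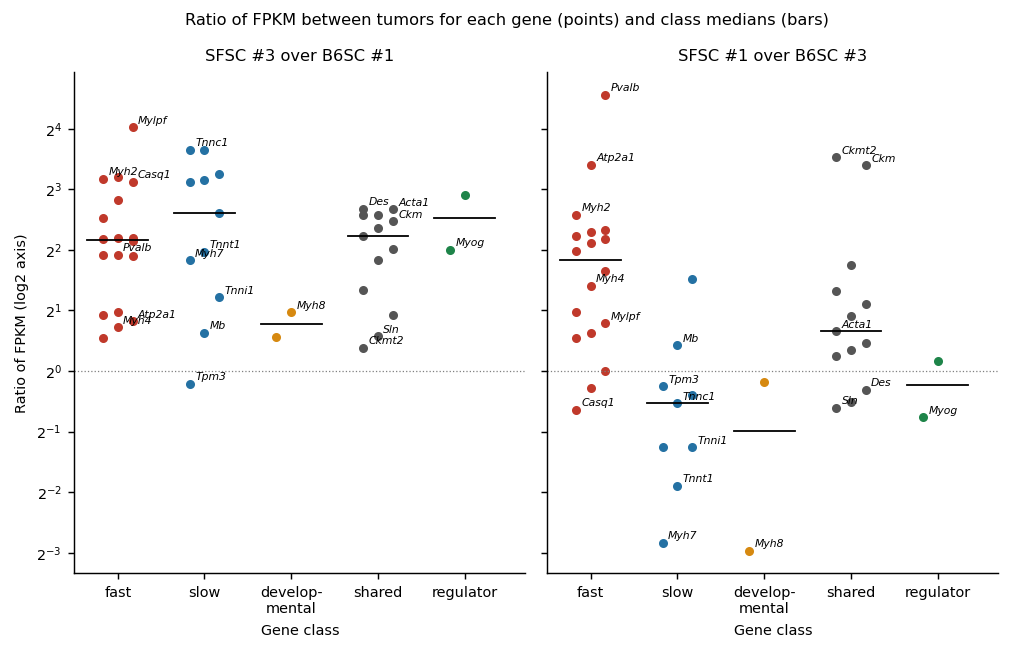
Ratio of FPKM for each muscle gene (points, log2 axis) by class, between SFSC replicate 3 and B6SC replicate 1 (left) and between SFSC replicate 1 and B6SC replicate 3 (right), with class medians as bars and selected genes named. On the left 45 of 46 points lie above 1, and on the right the fast median is 3.56 and the slow median 0.692.

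The ratio of desmin to creatine kinase within a tumor, also chosen after the values were seen, fell into separate ranges. Des over Ckm was 0.456, 0.580 and 0.501 in SFSC replicates 1 and 3 and B6SC replicate 1. It was 5.39, 3.86 and 6.28 in SFOG, 3.24 in SFSC replicate 2, and 4.98 and 5.96 in B6SC replicates 2 and 3. Des was thus the lower of the pair in the 3 tumors of highest signal and the higher in the other 6, although B6SC replicate 3 and SFSC replicate 1 had similar Des levels of 41.0 and 33.0 FPKM. Tnnt1 over Acta1 split the same way, at 0.00613 to 0.00998 in those 3 tumors and 0.0421 to 1.47 in the others. Ratios of the low tumors rest on small values. The 1.47, of B6SC replicate 2, came from 0.422 and 0.286 FPKM. Ckm was 0.671, 0.623 and 0.109 FPKM in replicate 2 of SFOG, SFSC and B6SC.

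Other genes of skeletal muscle followed the same tumors. Of a further list of 63 muscle genes, 57 were in the table, and 50 of the 57 had the same pair of top tumors. By limma, 0 of the 43 tested were called in each comparison, with 3, 0 and 0 at an unadjusted p under 0.05, against 26.5%, 24.4% and 6.27% of all genes tested. The median log2 fold change was 1.86 in SFSC and 1.17 in B6SC against SFOG, and −0.76 in B6SC against SFSC. Without SFSC replicate 3 the first was 0.33 and the third 0.79, and without B6SC replicate 1 the second was 0.19 and the third −1.80. Without SFSC replicate 2, 2 of the 43, Dysf and Tmod1, were called in SFSC against SFOG, against 261 of all 10263 genes tested. Without SFSC replicate 3, 1 of the 43, Jph2, was called in B6SC against SFOG, against 337 of all 10263 genes tested. The most abundant was Tpm1, an α-tropomyosin also made outside muscle, at 505 to 973 FPKM in 8 tumors and 3949 FPKM in SFSC replicate 3. Aldoa, an aldolase of glycolysis, lay at 481 to 905 FPKM in 8 tumors and at 1712 FPKM in that tumor, and Slc25a4, the mitochondrial ATP carrier, lay at 270.2 to 574 FPKM.

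The genes most like the muscle set were themselves muscle genes. Likeness was measured as Pearson's r over the 9 tumors with the mean log2(FPKM + 1) of the 46 genes, among the 10477 genes that reached 1 FPKM in 2 or more tumors. The 9 highest were Myot, Art1, Myom2, Ankrd23, Lmod2, Eef1a2, Nrap, Hspb7 and Cacng1, with r from 0.993 to 0.997, and all 9 are on the further list. Myot, myotilin of the Z disc, stood at 363 FPKM in SFSC replicate 3, 61.5 FPKM in B6SC replicate 1 and 5.46 FPKM or less elsewhere. Over the 7 tumors without the top pair, r was at least 0.962 for all 9. In all, 218 genes had an r above 0.9, and all points share the same libraries.

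Genes of muscle precursors had the same top pair in part. Of 17 stem cell and myoblast symbols, 13 were in the table, and 6 of the 13 had the same pair of top tumors. Pax7, the marker of satellite cells, reached 0.208 FPKM in SFSC replicate 3 and 0.102 FPKM in B6SC replicate 1, and was listed at 0 in the other 7. Myf6, the regulator of mature fibers, stood at 98.8 and 13.7 FPKM in these tumors and at 2.41 FPKM or less in the others. The most abundant of the list were Vcam1 (16.8 to 65.7 FPKM), Mef2a (31.7 to 43.8 FPKM) and Mef2d (30.7 to 46.0 FPKM), all of them also made in other cell types. By limma, 0 of 9 tested were called in each comparison, with 2, 2 and 1 at an unadjusted p under 0.05, against 26.5%, 24.4% and 6.27% of all genes tested. Without SFSC replicate 3, 1 of the 9, Vcam1, was called in B6SC against SFOG, against 337 of all 10263 genes tested.

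Several of the slow genes are also made in heart muscle, so markers of the heart were examined. Of 12 cardiac genes, 3 had the same pair of top tumors as the skeletal set. Another 8 were under 1 FPKM in all tumors, and Myh6 and Ryr2, which define cardiac muscle, did not exceed 0.0276 and 0.00210 FPKM. Actc1, cardiac actin, stood at 57.2 FPKM in SFSC replicate 3 and 8.0 FPKM in B6SC replicate 1 and at 1.16 FPKM or less in the others. Tnnt2, cardiac troponin T, stood at 16.6 and 12.8 FPKM in this pair and at 10.6 FPKM or less in the others, and Tnni3, cardiac troponin I, at 2.09 and 1.89 FPKM and at 1.78 FPKM or less. Gata4, a transcription factor of heart and endoderm, was higher in SFSC (log2 fold change 1.38, SE 0.25, limma adjusted p = 0.0151) and in B6SC (1.33, SE 0.25, limma adjusted p = 0.0176) than in SFOG, and was highest in B6SC replicate 2, the tumor of lowest muscle signal. Smooth muscle and pericyte markers were mixed in their order of tumors. Acta2, smooth muscle actin, stood at 15.8, 8.33 and 8.99 FPKM in SFOG, at 27.9, 30.9 and 76.5 FPKM in SFSC and at 34.2, 41.7 and 47.4 FPKM in B6SC, so that SFOG lay below both adapted groups (log2 fold changes 1.84 and 1.85, SE 0.37 each, limma adjusted p = 0.0229 and 0.0242). Cnn1, calponin, was higher in B6SC (1.57, SE 0.28, limma adjusted p = 0.0147), and the pericyte marker Cspg4 was lower in both (−1.01 and −1.14, SE 0.24 each, limma adjusted p = 0.0354 and 0.0262). Of 4 cardiac genes tested, 1 was called in each comparison with SFOG. Of 10 smooth muscle and pericyte genes tested, 1 was called higher and 1 lower in SFSC, and 2 higher and 1 lower in B6SC. Over all genes tested, 3.22% and 3.09% were called. Without SFOG replicate 3, 0 of the 7 calls of Gata4, Acta2, Cnn1 and Cspg4 held (limma adjusted p = 0.0618 to 0.114). Smtn, smoothelin, lay at 18.2 to 33.3 FPKM and Pdgfrb, a receptor of pericytes and fibroblasts, at 37.4 to 82.0 FPKM. Of the 13 smooth muscle and pericyte genes, 5 had the same top pair as the skeletal set. Among these, Tagln, an actin-binding protein, stood at 33.5 and 10.1 FPKM in the pair and at 7.21 FPKM or less in the others. Myh11, which defines smooth muscle, stood at 1.19 and 1.21 FPKM in the pair and at 0.400 FPKM or less in the others.

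Fat cell markers were in part highest in the same tumors as the muscle genes. Of 12 adipocyte genes, 8 had the same pair of top tumors. Their summed level was 24.5 to 44.7 FPKM in SFOG, 52.4 to 366 FPKM in SFSC and 18.8 to 128.7 FPKM in B6SC, with the highest value of each adapted group in the tumor of highest muscle signal. SFSC replicate 2, low in muscle genes, had a sum of 97.5 FPKM. Most of each sum was Fabp4, a fatty acid carrier, so the sums mainly describe this gene. It stood at 263 FPKM in SFSC replicate 3, 78.6 FPKM in B6SC replicate 1 and 61.3 FPKM or less elsewhere. Cfd, adipsin, stood at 38.0 and 8.34 FPKM in the pair, and Lpl, lipoprotein lipase, at 23.3 and 27.3 FPKM. Of the defining markers, Adipoq (adiponectin) stood at 12.3 FPKM in SFSC replicate 3, 2.17 FPKM in B6SC replicate 1 and 1.93 FPKM in SFSC replicate 2, and was listed at 0 in SFOG replicate 1. Plin1, of the lipid droplet, was listed at 0 in 3 tumors. By limma, 0 of 6 tested were called, with 2, 0 and 0 at an unadjusted p under 0.05, against 26.5%, 24.4% and 6.27% of all genes tested. The median log2 fold change was 1.62 in SFSC and 0.49 in B6SC against SFOG, and 0.78 and 0.061 without SFSC replicate 3 and without B6SC replicate 1. In SFSC against SFOG, 1 of the 6 was called without SFSC replicate 1 (Cidec, limma adjusted p = 0.0414) and 1 without B6SC replicate 1 (Lpl, limma adjusted p = 0.0136). Of all 10263 genes tested, 350 and 307 were called in these settings. The part of fat tissue in the muscle values was not tested.

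Markers of other neighboring tissues did not have the same top pair as a list. The cartilage genes summed to 5.56 to 13.9 FPKM and the nerve sheath genes to 8.38 to 18.7 FPKM, with 2 of 7 and 1 of 6 genes sharing the pair. Of cartilage, Sox9 lay at 5.23 to 12.9 FPKM and Acan and Comp at 4.49 FPKM or less, and of nerve sheath, Mbp lay at 5.63 to 12.0 FPKM and Prx at 2.02 to 4.02 FPKM. Of the 2 cartilage and 3 nerve sheath genes tested, S100b alone was called, where 3.22% and 3.09% of all genes tested were called. It was higher in SFSC (1.09, SE 0.25, limma adjusted p = 0.0322) and B6SC (1.38, SE 0.25, limma adjusted p = 0.0151) than in SFOG, and neither call held without SFOG replicate 3 (limma adjusted p = 0.108 and 0.0607). The thyroid follicle genes summed to 24.9 FPKM in SFSC replicate 3, the lowest of all tumors, and to 64.2 FPKM in B6SC replicate 1. Tg, thyroglobulin, stood at 1.20 and 31.0 FPKM in these tumors, and at 30.2 FPKM in SFOG replicate 2. Nkx2-1, a thyroid transcription factor, lay at 23.5 to 44.5 FPKM, and Pax8, another, at 1.61 FPKM or less. The salivary list summed to 63.8 to 144 FPKM, most of it Aqp5, a water channel, while Muc5b, a mucin, was at 18.8 FPKM in B6SC replicate 1 and at 0.0849 FPKM or less elsewhere and Bhlha15 at 0.784 FPKM or less. The parathyroid and C cell genes summed to at most 6.52 FPKM, in B6SC replicate 2, with Calca at 6.49 FPKM or less, Pth at 1.90 FPKM or less and Casr at 0.0445 FPKM or less. The part of these tissues in the muscle values was not tested.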

How the data were processed

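Total RNA from 9 whole tumors was sequenced, and the submitters' notes and the paper name FastQC, HISAT2, the mm10 build, Cuffnorm and Cuffdiff. The authors ran Cuffnorm on all tumors and deposited its FPKM values, and the gene annotation and the handling of fragments shared by paralogs are not given in the sources used here. Each of the 9 columns carried the label of 1 tumor, and 0 columns of no sample were present. At most 0.0487% of values were equal in any pair of tumors.

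FPKM are not counts, so values were tested as log2(FPKM + 1) with limma 3.58.1 in R 4.3.3 (lmFit and trended eBayes). A single model held the 3 groups and the 10263 genes that reached 1 FPKM in 3 or more tumors, with Benjamini-Hochberg adjustment over all of them. A fold change on this scale understates the change of low genes. The procedure was tested on simulated data, with changes placed only in genes of small spread. That test does not show how the procedure handles the muscle genes, most of which had a large spread. Exact permutation tests used scipy 1.17.1. The only measure of error is the spread between tumors, which the labels call biological replicates, and the number of tumors limits the precision. Same-numbered tumors are different animals.

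The muscle genes and all lists were chosen with earlier results of these data known. Values in every tumor are given for the 6 genes of highest mean FPKM in each class. Of other genes, the 10 of highest correlation with the muscle mean, and list genes that were called with all tumors or were the 3 of highest mean, are named, except that 1 of the 10 is not reported here. Others outside this rule, such as Pax7, Myf6, Adipoq, Tagln, Jph2 and the marker genes, were named as markers or after their values were seen. Alternatives were another scaling, filters, a pseudocount of 0.1, only the groups compared, a replicate block, robust eBayes and each tumor left out. Leaving out SFSC replicate 3 together with B6SC replicate 1, leaving Tpm3 and Eno3 out of the share, and refitting the other lists with tumors left out, were added after seeing the data. No reference of the mouse build was used, so genes are given by symbol only.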

Additional observations from a re-analysis of the deposited data

How the results depend on the processing

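In each of the 17 alternatives, 0 muscle genes were called in any comparison, and the lowest adjusted p of a muscle gene over all of them by limma was 0.140, 0.219 and 0.678 for SFSC against SFOG, B6SC against SFOG and B6SC against SFSC. With no tumor left out, 1 muscle gene turned direction, Myh8 in B6SC against SFSC, from 0.23 to −0.17 with a pseudocount of 0.1 (limma adjusted p = 0.989). Of 357 values of 7 genes (Acta1, Myh4, Tnnt3, Tnnt1, Des, Myog and Tpm3) under these settings, 30 turned direction, all where tumors were left out and 0 of them called. With each tumor left out in turn, log2 fold changes in SFSC against SFOG ranged from 0.66 to 5.94 (Acta1), −0.26 to 2.18 (Tnnt1), −0.27 to 4.35 (Des) and −0.31 to 1.82 (Myog). They kept their direction at 1.13 to 6.25 (Tnnt3), 0.53 to 4.30 (Myh4) and −0.21 to −0.13 (Tpm3). In B6SC against SFOG they ranged from −0.77 to 4.28 (Acta1), −0.36 to 4.14 (Tnnt3), −0.60 to 3.16 (Des), −0.25 to 1.12 (Myog) and −0.112 to 0.0215 (Tpm3). They stayed above 0 at 0.067 to 3.47 (Myh4) and 0.19 to 1.89 (Tnnt1). In B6SC against SFSC they ranged from −4.40 to 0.90 (Acta1), −2.63 to 1.62 (Myh4), −4.31 to 0.82 (Tnnt3), −1.18 to 1.25 (Tnnt1), −3.24 to 1.38 (Des) and −1.39 to 0.75 (Myog). With SFSC replicate 3 and B6SC replicate 1 both left out, only some of the 7 genes turned direction. Those in SFSC against SFOG were Tnnt1 (−0.26), Des (−0.27) and Myog (−0.31). Those in B6SC against SFOG were Acta1 (−0.77), Tnnt3 (−0.36), Des (−0.60) and Myog (−0.25). In B6SC against SFSC, Tnnt1 (0.44) and Myog (0.06) turned. The median of 4 fast genes (Myh4, Tnnt3, Tnni2 and Tnnc2) stayed below 0 there, at −1.31.

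Over all genes, the number called ranged from 150 to 350, from 154 to 343 and from 0 to 6 in the 3 comparisons with each tumor left out. Of the 11 calls of Krt8, Gata4, Acta2, Cnn1, Cspg4 and S100b, all 11 were lost without SFOG replicate 3, 6 without SFOG replicate 1, 3 without SFOG replicate 2, 1, 2 and 1 without SFSC replicates 1, 2 and 3, and 4, 3 and 8 without B6SC replicates 1, 2 and 3. Against 3 called in B6SC against SFSC, 1 was called with all genes above 0 in 1 tumor, and 0 with only the 2 groups compared. The muscle share of all FPKM, 0.109% ± 0.0287 in SFOG, 2.97% ± 4.85 in SFSC and 0.676% ± 0.967 in B6SC (SD, n = 3), ranged from 0.0966% to 0.125%, 0.175% to 4.42% and 0.119% to 0.979% with a tumor left out, and was 0.0258% in SFOG without Tpm3 and Eno3. The fast share of myosin heavy chains in B6SC replicate 2 was 59.6% with 0.1 FPKM added to each gene, against 100% without, because the sum was only 0.143 FPKM.

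The labels do not say whether same-numbered tumors shared a harvest or a library batch, and the main model used no pairing. Deviations from group means of same-numbered tumors had correlations across genes of −0.388 to 0.614, and same-numbered tumors are different animals. With the replicate block, 242, 245 and 0 genes were called in the 3 comparisons, and 0 muscle genes.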

Other observations

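Genes of the wider muscle list differed in the ratio between SFSC replicate 3 and B6SC replicate 1, and those named here were chosen after their values were seen. Csrp3, a stretch-sensing Z disc protein, stood at 1370 FPKM in SFSC replicate 3 and 64.2 FPKM in B6SC replicate 1, a ratio of 21.3, and Car3, the carbonic anhydrase of slow fibers and fat, stood at 949 and 40.8 FPKM, a ratio of 23.3. The ubiquitin ligases of muscle atrophy had other ratios. Trim63 stood at 35.2 and 31.8 FPKM in these tumors, a ratio of 1.11, and Fbxo32 at 5.04 and 12.7 FPKM, a ratio of 0.396. Cox8b, a respiratory chain subunit of muscle and brown fat, stood at 88.5 and 83.1 FPKM. Of the 5 acetylcholine receptor subunits of the nerve-muscle junction, 3 had this pair as top tumors. Chrnd stood at 0.939 and 0.890 FPKM in the pair and at 0.702 FPKM or less elsewhere, Chrng at 0.822 and 0.581 FPKM and at 0.546 FPKM or less, and Chrne at 1.16 and 0.209 FPKM and at 0.0584 FPKM or less. The others did not. Chrnb1 stood at 30.3, 9.46 and 21.2 FPKM in SFOG, at 5.62, 11.2 and 22.1 FPKM in SFSC and at 9.34 to 10.1 FPKM in B6SC. Chrna1 was highest in SFOG replicate 3, at 7.90 FPKM, and stood at 5.97 FPKM in SFSC replicate 3 and 2.84 FPKM in B6SC replicate 1.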
